A study of Sus scrofa with 6 samples.

Results

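VIL1, ANPEP, DPP4, ALPI, LCT, SI, FABP1, FABP2 and EZR are markers of the brush border and of absorptive enterocytes, and their signal was followed in IPEC-1 cells on 6 GeneChip Porcine Genome Arrays. Members were all probe sets whose platform annotation gives exactly 1 of these 9 symbols. This rule found 6 probe sets among the 23999 that are no Affymetrix controls, 1 each for VIL1, ANPEP, DPP4, FABP1, FABP2 and EZR. The symbols ALPI, LCT and SI matched no probe set, and these 3 genes were not analysed here. IPEC-1 is a single non-transformed epithelial line from the small intestine of a newborn piglet. All cells grew on porous membrane inserts and were kept at the end in medium without serum. The ALI cells had only a thin film of liquid on their apical side, while the SMC cells stood under a column of medium. There were 3 ALI and 3 SMC arrays, and the labels give passages P109, P111 and P113 to 1 array of each group. The arrays of a group are therefore 3 passages of 1 cell line, and p-values measure the spread between them.

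The brush border is the apical surface of absorptive enterocytes, a dense carpet of microvilli. Each microvillus is held up by a core of actin filaments, which villin bundles and which ezrin links to the membrane. Hydrolases anchored in this membrane finish the digestion of peptides, sugars and phosphate esters, and fatty acid-binding proteins in the cytosol take up the absorbed lipids. Most of these products appear as cells leave the crypt and mature on the villus, and cultured enterocyte lines are commonly judged by them.

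A log2 signal was taken to lie above the lowest 25% of an array when it exceeded the 25% quantile of that array, which was between 4.518 and 4.616. This line is no measure of background. Because no detection calls were used, a signal on either side of it is not shown to be above background. By this measure, 3 of the 6 markers lay above the lowest 25% on all 6 arrays, namely VIL1, ANPEP and EZR. DPP4 was above it on 1 array, and FABP1 and FABP2 on none. Of all 23999 probe sets, 71.5% lay above it on all 6 arrays. Of all 6765 genes with a symbol, each at its brightest probe set, 86.5% did. Beside the enterocyte markers, 9 measured markers of epithelium were read. Of these, 8 lay above the lowest 25% on all arrays, among them the adhesion molecule EPCAM with a mean log2 signal of 13.39 in ALI and 13.32 in SMC cells, and the exception was the junction protein TJP1 at 4.07 and 4.14. The share of epithelial genes above the lowest 25% (88.9%) was close to that of all genes, so this count is no check of the cell type. Of the 6 measured enterocyte markers, 3 did not lie above the lowest 25% on all arrays. The brightness of different probe sets is not a measure of the relative amount of their transcripts.

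**Figure D1:**
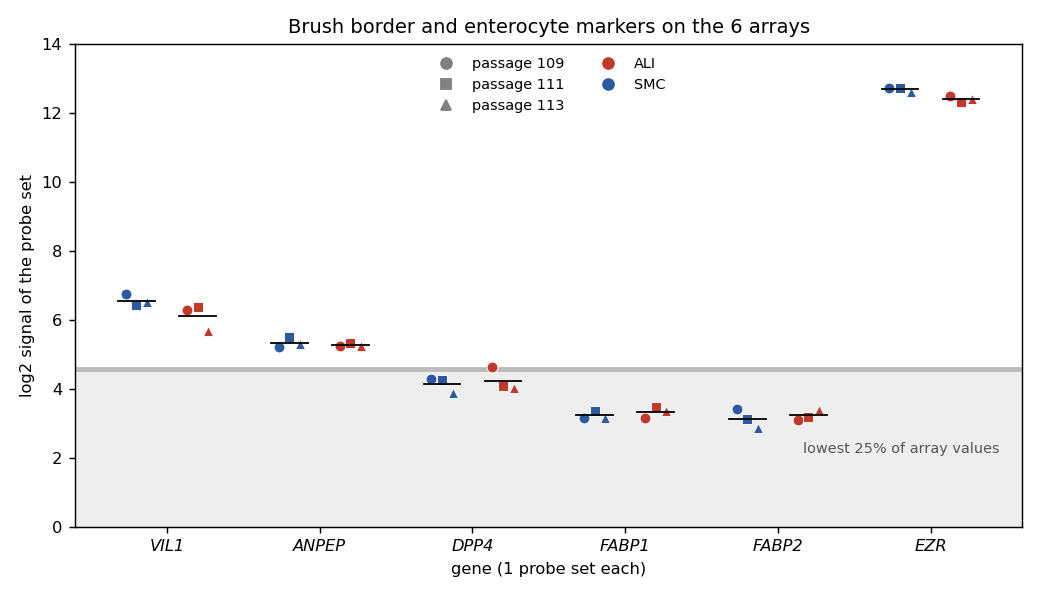
Log2 signal (vertical axis) of the 6 measured markers on each array, with ALI arrays in red, SMC arrays in blue, passages as symbols and black lines for group means of 3 arrays. The light grey area is the lowest 25% of the array values and the darker stripe the range of its upper limit over the arrays (4.518 to 4.616). EZR is far above it, VIL1 and ANPEP are above it on every array, and FABP1 and FABP2 are inside it on every array.

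None of the 6 markers passed the test between ALI and SMC cells, at adjusted p values of 0.24 to 0.854 from limma (Benjamini-Hochberg over all probe sets). Among all probe sets, 1.9% were called in either direction. At an unadjusted p under 0.05, limma named 2 of the 6 markers, VIL1 and EZR, and the methods' t-test named 1, EZR. In limma, 14.3% of all probe sets reached this level. The ALI and SMC arrays did not overlap for the same 2 markers, as was the case for 19.6% of all probe sets. Of the 6 differences, 3 were below 0 and 3 above, and their median of 0.02 log2 units was that of all probe sets (0.02). With the passage as a block, none of the 6 was called either, against 5.32% of all probe sets.

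EZR encodes ezrin, which ties the actin core of the microvillus to the plasma membrane. Its log2 signal was 12.49, 12.32 and 12.40 on the ALI arrays of passages P109, P111 and P113, and 12.72, 12.73 and 12.62 on the SMC arrays. Every ALI array lay below every SMC array, and the probe set was among the brightest on each array, at the 98.7th to 99th percentile. The mean of EZR was 12.40 ± 0.0872 in ALI and 12.69 ± 0.0647 in SMC cells (SD, n = 3 each). The difference of -0.29 log2 units had a standard error of 0.10 and a 95% interval of -0.52 to -0.06, and did not pass limma's test (adjusted p = 0.24). The interval corresponds to a signal in ALI cells of 0.697 to 0.962 times that in SMC cells. A change of 1.5-fold in either direction is outside this interval. As whole cultures were measured, fewer cells with a transcript and less transcript per cell cannot be told apart, here and in all values that follow.

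VIL1 encodes villin, the protein that bundles and severs actin in the microvillus core and that is a common marker of the brush border. Its log2 signal was 6.30, 6.37 and 5.69 on the ALI arrays of passages P109, P111 and P113, and 6.75, 6.43 and 6.51 on the SMC arrays. The ALI array of passage P113 was the lowest of the 6, and the groups did not overlap, although the arrays of passage P111 differed by only -0.07. At passages P109 and P113 the difference between ALI and SMC was -0.45 and -0.82. The ALI mean of 6.12 ± 0.373 (SD, n = 3) stood against an SMC mean of 6.56 ± 0.166 (SD, n = 3). This difference of -0.45 had a standard error of 0.19 and a 95% interval of -0.88 to -0.01, and did not pass limma's test (adjusted p = 0.332). This value rested in good part on 1 array, as it was -0.23 without ALI replicate 3 (adjusted p = 0.417). With weights for the quality of the arrays it was -0.31.

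ANPEP encodes aminopeptidase N, a peptidase that removes single amino acids from the ends of peptides at the brush border. Its log2 signal lay between 5.24 and 5.33 in ALI and between 5.21 and 5.51 in SMC cells, and the groups overlapped. The lowest and the highest of the 6 values were both SMC arrays, so the range of 0.30 log2 units over all arrays was the range within 1 culture type. The ALI mean was 5.27 ± 0.0497 (SD, n = 3), and the SMC mean was 5.34 ± 0.156 (SD, n = 3). The difference was -0.07 with a 95% interval of -0.32 to 0.19 (adjusted p = 0.839 from limma). A change of 1.5-fold lies outside this interval as well, as far as the log2 signal of a probe set close to the lowest 25% follows the transcript.

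DPP4 encodes dipeptidyl peptidase IV, a membrane peptidase that removes dipeptides ending in proline from peptides. Its log2 signal was 4.63, 4.07 and 4.03 on the ALI arrays of passages P109, P111 and P113, and 4.28, 4.25 and 3.88 on the SMC arrays. The ALI array of passage P109 exceeded the lowest 25% by 0.01, and the other 5 arrays lay 0.26 to 0.64 below it. The groups overlapped, with a difference of 0.10 (95% interval -0.32 to 0.53, adjusted p = 0.854 from limma). Its sign turned without ALI replicate 1 (-0.09) or SMC replicate 3 (-0.03).

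FABP1 and FABP2 encode the liver and the intestinal fatty acid-binding protein, both abundant in the cytosol of villus enterocytes. The log2 signal of FABP1 lay between 3.16 and 3.47 in ALI and between 3.17 and 3.36 in SMC cells. That of FABP2 lay between 3.10 and 3.40 in ALI and between 2.85 and 3.41 in SMC cells. All of these values are at or below the 7.8th percentile of their array, between 1.14 and 1.67 log2 units under the lowest 25%, and the groups overlapped. The differences between the cultures were 0.10 for each gene, with 95% intervals of -0.17 to 0.38 for FABP1 and -0.27 to 0.46 for FABP2 (adjusted p = 0.76 and 0.832 from limma). For signals of this size no fold change of the transcript can be read, and a probe set that does not respond and a transcript that is not made cannot be told apart.

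**Figure D2:**
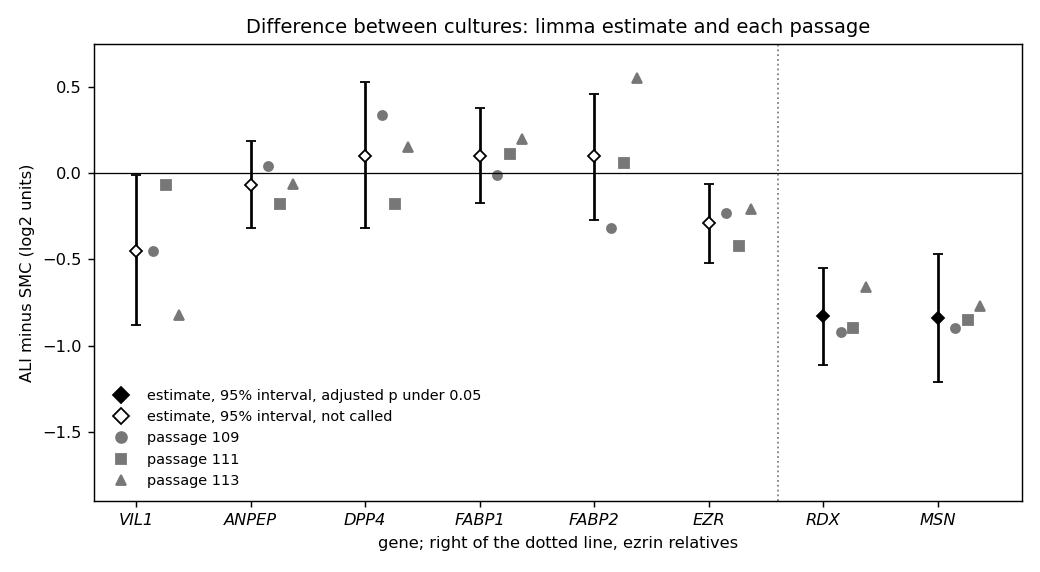
Difference between ALI and SMC cells in log2 units for the 6 measured markers and, right of the dotted line, for the ezrin relatives RDX and MSN. Diamonds are limma estimates with 95% intervals, filled where the adjusted p was under 0.05, and grey symbols are the 3 passages. VIL1 and EZR are below 0 at each passage without being called, while RDX (-0.83) and MSN (-0.84) are called.

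The sign of the difference was the same at all 3 passages for VIL1 and EZR, a pattern shared by 41.2% of all probe sets. It differed between passages for the other 4 markers. FABP2 ran from -0.32 at passage P109 over 0.06 at passage P111 to 0.55 at passage P113. The slope of the difference over the passages, with the passage as a number, was tested after these values had been seen. It was 0.216 log2 units per passage for FABP2 (95% interval 0.0627 to 0.37, unadjusted p = 0.013, adjusted p = 1 in limma), and the other 5 markers had unadjusted p from 0.354 to 0.946. Over all probe sets this test called 0 (0%), with 2.21% at an unadjusted p under 0.05, and all FABP2 signals lay in the lowest 25%. The passages themselves were compared with a moderated F test in a model with culture type and passage, which called none of the 6 markers (adjusted p from 0.3 to 0.919 in limma) and 0.05% of all probe sets. In this F test DPP4 had the lowest unadjusted p (0.0339), with means over both cultures of 4.46, 4.16 and 3.95 at passages P109, P111 and P113, and was the only marker under 0.05, a level reached by 14.6% of all probe sets. The means of VIL1 at these passages were 6.52, 6.40 and 6.10 (unadjusted p = 0.111). VIL1, DPP4, FABP2 and EZR had their lowest mean at the latest passage, and ANPEP and FABP1 at the earliest. How many of all probe sets have their lowest mean at the latest passage was not counted. The means were 3.26, 3.15 and 3.13 for FABP2 (unadjusted p = 0.781 in the F test) and 12.61, 12.52 and 12.51 for EZR (0.724). With the passage as a number, the unadjusted p was 0.00997 for DPP4 (adjusted p = 0.246 in limma) and 0.0447 for VIL1 (0.361), against 13.3% of all probe sets under 0.05.

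Ezrin belongs to a family of 3 linkers between actin and the membrane, and the other two, radixin (RDX) and moesin (MSN), fell in ALI cells. Radixin is prominent in the microvilli of bile canaliculi, and moesin in endothelial, immune and mesenchymal cells. The log2 signal of RDX was 7.63, 7.68 and 7.99 on the ALI arrays of passages P109, P111 and P113, and 8.55, 8.58 and 8.65 on the SMC arrays. That of MSN was 7.49, 7.55 and 7.17 in ALI and 8.39, 8.40 and 7.95 in SMC cells. At these probe sets, the brighter of each gene, all ALI arrays lay below all SMC arrays. RDX fell by 0.83 (standard error 0.12, adjusted p = 0.0169 from limma) and MSN fell by 0.84 (standard error 0.16, adjusted p = 0.0436), which is 0.564 and 0.559 times the signal in SMC cells. The second probe set of RDX had a difference of -1.04 (adjusted p = 0.0499), and that of MSN one of -0.46 (adjusted p = 0.235, and 0.0406 with the passage as a block), where the groups overlapped. By passage, EZR differed by -0.23, -0.42 and -0.21, RDX by -0.92, -0.90 and -0.66, and MSN by -0.90, -0.85 and -0.77 at the brighter probe sets. EZR was closest to 0 of these at each passage, but the second probe set of MSN gave -0.50, -0.39 and -0.50, closer to 0 than EZR at passage P111. Whether EZR differs from its relatives was not tested. RDX no longer passed when ALI replicate 1 (adjusted p = 0.0851), ALI replicate 2 (0.0515) or SMC replicate 2 (0.0905) was left out. MSN passed with SMC replicate 3 left out, but with none of the other 5 arrays left out (0.0706 to 0.198) and not after quantile normalization (0.0606). The second probe set of RDX kept its call only without ALI replicate 3 (0.0279) and had an adjusted p of 0.0589 after quantile normalization.

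**Figure D3:**
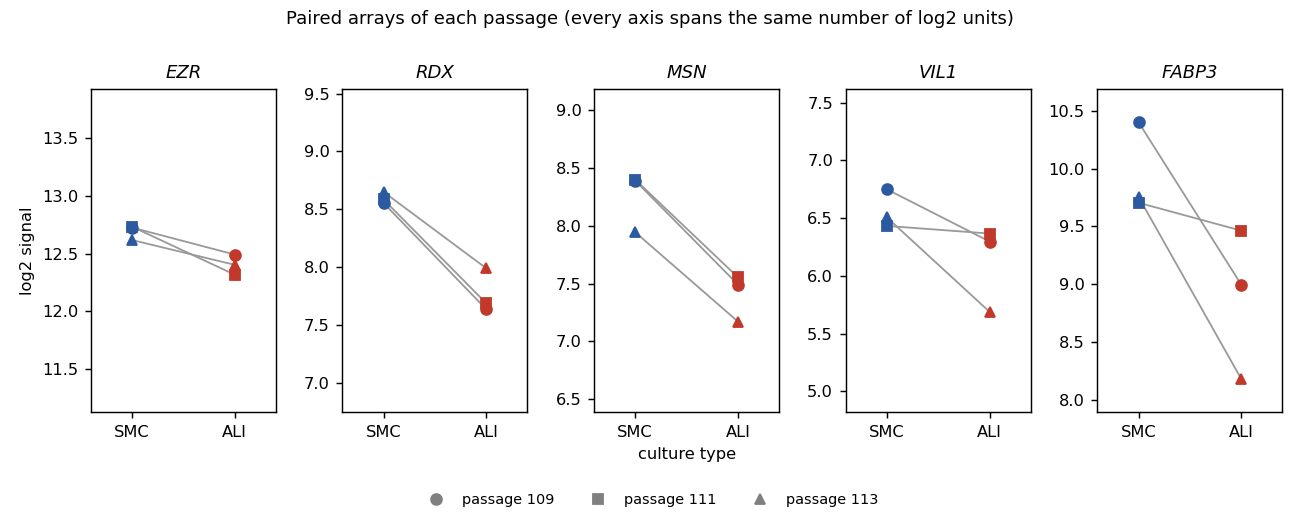
Log2 signal of EZR, RDX, MSN, VIL1 and FABP3 on SMC (blue) and ALI (red) arrays, with grey lines joining the arrays of a passage and axes of equal span. RDX and MSN, shown at their brighter probe sets, drop more than EZR at each passage, and VIL1 and FABP3 share their flattest line at passage P111 and a low ALI value at passage P113.

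Genes that usually mark other cell types were read beside these values, since moesin is common outside epithelium. All arrays are of 1 epithelial cell line, so a signal of such a gene does not by itself show another cell type. Whether other cells were present was not tested. Each gene was read at its brightest probe set, and 2.53% of all genes were called in either direction. Among 10 measured genes of fibroblasts and smooth muscle, 1 was called, the intermediate filament gene VIM, which fell by 1.34 (adjusted p = 0.00442 from limma). The summed linear signal of this list was 4428 to 6032 in ALI and 10240 to 10940 in SMC cells, and VIM made up 53.4% to 85% of it. The fibroblast genes DCN and LUM were in the lowest 25% on every array. The other 8 lay above it on all arrays, among them TAGLN with means of 10.12 in ALI and 10.17 in SMC cells. Of 5 immune genes 1 was called, AIF1 at -0.64 (adjusted p = 0.0248). The pan-leukocyte gene PTPRC was in the lowest 25% on all arrays, while AIF1, CD14 and CD3E lay above it on all arrays. The summed signal of the immune list was 1446 to 1669 in ALI and 2297 to 2431 in SMC cells, with AIF1 making up 92% to 95.5%. Of 5 endothelial genes 1 was called, PECAM1 at -0.50 (adjusted p = 0.0448). CDH5 and KDR were in the lowest 25% on all arrays, and PECAM1 and VWF lay above it on all arrays. The summed signal of the endothelial list was 221.5 to 262.7 in ALI and 281.3 to 307.7 in SMC cells. The goblet cell peptide TFF3 fell by 1.08 (adjusted p = 0.0266) as 1 of 3 goblet genes, whose summed signal was 16450 to 18780 in ALI and 20190 to 23090 in SMC cells. CLCA1, which was not called (-0.30, adjusted p = 0.251), made up 98.4% to 99.1% of this sum. The hormone precursor GCG rose by 0.64 (adjusted p = 0.0448) as 1 of 6 enteroendocrine genes, summed at 215.9 to 237.7 and 168.7 to 200.7. No call was made among 9 epithelial genes, where the junction genes CLDN7 (-0.38, adjusted p = 0.532) and OCLN (0.30, adjusted p = 0.398) were farthest from 0, nor for the Paneth cell gene MMP7 (0.03, adjusted p = 0.949). The dimmer probe sets of OCLN had differences of 0.08 and -0.14. Of 5 stem and crypt cell genes none was called without the passage as a block. With it, 2 were called lower in ALI cells, as were 254 of all 6765 genes. The crypt transcription factor SOX9 had a difference of -0.73 (adjusted p = 0.452, and 0.0389 with the block), and TOP2A, a topoisomerase of dividing cells, one of -0.60 (adjusted p = 0.258 and 0.0194). Both were below 0 at each passage, the groups overlapped, and without 1 array the values ran from -1.03 to -0.25 for SOX9 and from -0.78 to -0.39 for TOP2A, with no call. Whether the values of these genes are linked to those of the markers, RDX and MSN was not tested. Leaving out 1 array ended the call of AIF1 in 5 of 6 cases (adjusted p up to 0.123), of GCG in 5 (up to 0.171), of PECAM1 in 6 (0.0792 to 0.149) and of TFF3 in 3 (up to 0.111).

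Further genes of the same structures were taken from lists of enterocyte functions, and each gene was read at its brightest probe set. Over 77 measured genes of 5 such lists, 4 were called, each of them lower in ALI cells, against 2.53% of all genes called in either direction, and the median log2 difference was 0.03 (0.01 for all genes). In the list of microvillus structure, 11 of 27 genes were measured, all above the lowest 25% on every array. RDX and MSN were the called ones, and the median was -0.19. Of the 11 differences 9 were below 0, against 3243 of all 6765 genes. The apical recycling GTPase RAB11A had a difference of -0.33 (adjusted p = 0.161) at its brighter and -0.01 at its other probe set. The apical motor protein MYO5B had one of -0.27 (adjusted p = 0.334). The scaffold proteins of the ezrin complex, SLC9A3R1, SLC9A3R2 and PDZK1, had differences of -0.17, 0.13 and -0.04. In this list the arrays of both groups did not overlap for 5 of 11 genes, against 21.9% of all genes.

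The membrane hydrolases other than ANPEP and DPP4 had mostly low signals. Of 19 listed genes 9 were measured, and only 4 of them were above the lowest 25% on all arrays, namely ACE, DPEP1, GGT1 and XPNPEP2. ENPEP, MEP1B, TMPRSS15 and CD38 were inside it on every array, and ALPL, the alkaline phosphatase of other tissues, exceeded it on 1. TMPRSS15 encodes enteropeptidase, which activates trypsinogen, and MEP1B a subunit of the metalloprotease meprin. No hydrolase was called, and the differences ran from 0.00 to 0.21 with a median of 0.10. The farthest from 0 above the lowest 25% were GGT1, which splits glutathione, at 0.21 (95% interval -0.08 to 0.51, adjusted p = 0.511 from limma), and XPNPEP2, which cuts next to proline, at 0.14 (adjusted p = 0.755). The dimmer probe sets of GGT1 had differences of 0.06, -0.13 and 0.10, and only that at 0.06 was above the lowest 25% on all arrays.

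Absorptive transporters were represented by 24 of 35 genes, of which 18 were above the lowest 25% on all arrays and 2 were called, both lower in ALI cells. The basolateral glucose transporter SLC2A2 (GLUT2) fell by 1.22 (standard error 0.14, adjusted p = 0.00759 from limma), and the fructose transporter SLC2A5 fell by 0.85 (standard error 0.15, adjusted p = 0.0347). The sodium-glucose cotransporter of the brush border, SLC5A1, had a difference of -0.54 (standard error 0.18, adjusted p = 0.22), and its arrays did not overlap between the groups. The peptide transporter SLC15A1 (-0.02) and the sodium-proton exchanger SLC9A3 (0.29, adjusted p = 0.409), both of the apical membrane, were not called. The glutamate transporter SLC1A1 had a difference of -0.82 (adjusted p = 0.184), which passed with the passage as a block (0.0216) and without ALI replicate 2 (-1.12, adjusted p = 0.0303). Without ALI replicate 3 it was -0.57 (adjusted p = 0.248), and without each of the other arrays the adjusted p was 0.194 to 0.489. The dimmer probe sets of SLC1A1 had differences of -0.18, -0.61, 0.29 and 0.13. Only that at -0.18 lay above the lowest 25% on all arrays. With the block, limma's adjusted p was 0.374 for it and 0.0229 for that at -0.61. SLC26A3 and SLC7A9, transporters of chloride and of cystine, were inside the lowest 25% on every array. The median over the list was 0.05. SLC2A2 kept its call without each of the 6 arrays (adjusted p up to 0.0489), and SLC2A5 kept it only without ALI replicate 2 (0.0156; 0.0624 to 0.14 without each of the others).

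Of the genes of lipid uptake and chylomicron assembly, 23 of 32 were measured, 13 were above the lowest 25% on all arrays and none was called. The median difference was 0.04. Among the relatives of FABP1 and FABP2, FABP4, FABP5 and FABP7 were in the lowest 25% on all arrays, and the ileal FABP6 exceeded it on 1. The exception was FABP3, the heart type, with log2 signals of 8.99, 9.46 and 8.18 in ALI and 10.40, 9.70 and 9.76 in SMC cells at passages P109, P111 and P113. Its groups did not overlap, and its difference of -1.07 (standard error 0.32, 95% interval -1.80 to -0.35) had an adjusted p of 0.162 in limma and of 0.038 with the passage as a block. By passage the difference was -1.41, -0.24 and -1.58. APOB, the scaffold of the chylomicron, was in the lowest 25% on every array, while MTTP, which loads it with lipid, had means of 5.89 in ALI and 6.12 in SMC cells (adjusted p = 0.641). APOA1 had means of 8.52 and 8.67 (adjusted p = 0.732). APOE was next farthest from 0 at -0.30 (adjusted p = 0.311), but its other probe set had a difference of 0.03.

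**Figure D4:**
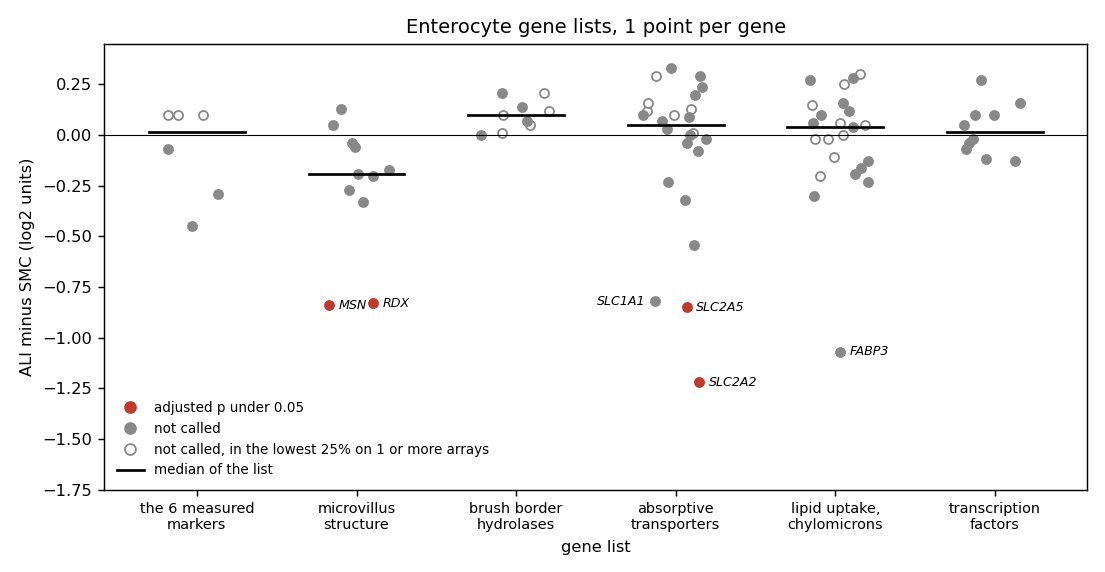
Difference between ALI and SMC cells (log2 units) for each measured gene of the 6 markers and of 5 lists of enterocyte genes, with black lines for the medians. Red points passed limma's test (RDX, MSN, SLC2A2 and SLC2A5), and open points lay in the lowest 25% on at least 1 array. At the brightest probe set of each gene, the hydrolases lie at or above 0 within 0.21 log2 units. Most microvillus genes lie below 0, against 3243 of all 6765 genes.

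Transcription factors of enterocyte identity were measured for 10 of 22 genes, all above the lowest 25% on every array, with no call and a median difference of 0.01. HNF4A, a nuclear receptor that drives enterocyte genes, had means of 7.13 in ALI and 7.15 in SMC cells (difference -0.02, 95% interval -0.47 to 0.43). GATA4 and GATA6, which specify the upper small intestine and its epithelium, differed by 0.05 and -0.12. The largest difference was that of PPARG at 0.27 (adjusted p = 0.551 from limma), followed by the xenobiotic receptor NR1I2 at 0.16 (adjusted p = 0.636).

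The genes most like a marker were sought among 5853 other genes above the lowest 25% on all arrays, by Pearson's r of the log2 signal over the 6 arrays. The points are 2 culture types of 3 passages each, so that a difference between the cultures alone gives a high r, and the values are a description. VIL1 was followed most closely by RND3 (r = 0.983), FABP3 (0.973) and HNRNPH3 (0.972). FABP3 had its lowest value on the ALI array of passage P113 and its highest on the SMC array of passage P109, as VIL1 did. EZR was followed by BASP1 (0.997), TUSC2 (0.989) and PCDH7 (0.982), and ANPEP by SQSTM1 (0.979), RPUSD1 (0.97) and PSMD13 (0.955). These genes were picked for the highest r, so that their r cannot be set against that of a given pair. Between pairs of the 6 markers, of which 3 had low signals, r ran from -0.547 to 0.629, with the highest value for VIL1 and EZR.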

How the data were processed

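RNA of IPEC-1 cells from ALI and SMC cultures was measured on GeneChip Porcine Genome Arrays (6 arrays, 3 for each culture type). The methods give GC-RMA (R package gcrma) as the normalization, while GCOS 1.1.1 is named in the submitters' processing notes. The deposited table has 1 column of log2 signals for every array, and no normalization is named in it. It was not scaled again. The labels' description names liver, against the cell line and culture type in the other labels, and was not used.

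After 124 Affymetrix control probe sets were left out, 23999 probe sets were fitted with limma 3.58.1 in R 4.3.3, with culture type as the only factor. The p-values were adjusted by Benjamini-Hochberg over all of them, with 0.05 as the limit of a call. Standard errors, intervals and calls between the cultures come from this fit, which leaves the pairing by passage out, unless the block or another alternative is named. Passages were compared with limma's F test, and the slope of the difference over passages was tested after the data had been seen. The fit was tested on simulated data. Symbols came from the platform annotation (10069 probe sets with 1 symbol, 198 with several, 13732 with none), and only probe sets with 1 symbol are named. Of 2261 genes with several probe sets, the one with the highest mean was used. Members, gene lists and the naming rule were chosen with earlier results of these data known. Named are all members, up to 6 called genes of each list or, with none called, the 2 farthest from 0 above the lowest 25%, and the 3 genes most like a member. Other genes were named after their values were seen.

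Arrays of 1 passage were taken as paired in the differences by passage and in the block, as the labels give the shared passage. Their deviations from the group means correlated at 0.34, 0.14 and 0.451. For arrays of different passages these correlations ran from -0.424 to 0.219. ALI replicate 2 correlated more with SMC replicate 1 (0.219) than with SMC replicate 2 (0.14), so the pairing rests on the labels. Arrays have no depth, so the precision is set by how many there are. With 3 arrays in each group, an exact permutation test reaches 0.1 at best. Alternatives were the passage as a block, quantile normalization, filters on dim probe sets, variance trends, array weights, the methods' t-test and leaving out each array.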

Additional observations from a re-analysis of the deposited data

How the results depend on the processing

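No marker was called under those of the 15 alternatives to the fit between cultures in which it was tested, nor under the 3 alternatives to the fit between passages. Filters on dim probe sets kept 4 markers (mean log2 signal above 4), 2 (above 6) or 3 (above the lowest 25% on all arrays of a group), so that 15 alternatives were run for VIL1 and EZR, 14 for ANPEP, 13 for DPP4 and 12 for FABP1 and FABP2. EZR stayed between -0.33 and -0.24 log2 units (adjusted p from 0.117 to 0.535) and VIL1 between -0.57 and -0.23 (0.144 to 0.555). The sign turned for DPP4 without ALI replicate 1 (-0.09) or SMC replicate 3 (-0.03), for ANPEP without SMC replicate 2 (0.02), for FABP2 without SMC replicate 3 (-0.04) and for FABP1 with array weights (0.00). Without 1 array, the values ran from -0.13 to 0.02 for ANPEP, from -0.09 to 0.21 for DPP4 and from -0.04 to 0.24 for FABP2. Of the 455 probe sets called in all, the count became 1276 with the passage as a block (480 higher and 796 lower), 1059 with array weights (399 and 660), 0 with the methods' t-test after adjustment (1468 higher and 1423 lower at an unadjusted p under 0.05) and 119 to 432 without 1 array, the lowest without ALI replicate 1 (48 and 71) and SMC replicate 2 (42 and 86). Between passages, 12 probe sets were called, 27 after quantile normalization, 62 with an intensity trend and 0 with the passage as a number. The cause of these shifts was not tested. The block changed no call of the 6 markers. After adjustment the methods' t-test called none of the other genes named either. Signals in the lowest 25% limit DPP4, FABP1 and FABP2.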

Other observations

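Some epithelial genes gave different values at different probe sets, which were picked out after their values were seen. CDH1, which encodes E-cadherin of the adherens junction, had a difference of -0.10 between ALI and SMC cells at its brighter probe set (adjusted p = 0.733 from limma), with means of 12.77 and 12.87. At its other probe set the means were 5.98 and 6.76, and the difference of -0.78 (standard error 0.15) was called (adjusted p = 0.0412). The arrays of the groups did not overlap there, and the difference was -0.73, -0.84 and -0.76 at passages P109, P111 and P113. This call was lost without any 1 array other than SMC replicate 3 (adjusted p up to 0.157). The simple-epithelium keratin KRT8 had a difference of 0.12 at its brighter probe set and of -0.51 at the other, neither of them called (adjusted p = 0.669 and 0.321). Each of the 6 brush border and enterocyte markers is measured by 1 probe set, so that no such comparison exists for them.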
